A study of Sus scrofa with 8 samples.

Results

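Vascular smooth muscle marker genes were followed in RNA-seq libraries of pig heart. They were chosen by name from a list of 10 genes (ACTA2, MYH11, TAGLN, CNN1, LMOD1, SMTN, MYLK, PPP1R14A, PPP1R14B and CALD1), and 8 of them have a row under that name among the 18975 genes listed. LMOD1 and PPP1R14A had no such row and were not analysed here. The hearts came from male pigs aged 6 months in 4 groups: Tibetan pigs of the highland (TH) and of the lowland (TL), and Yorkshire pigs of the highland (YH) and of the lowland (YL). Each group has 2 libraries, each made from pooled RNA of 4 pigs, so every error given here describes pools, and the spread among animals is not known. The labels name the tissue as heart without naming a chamber. The descriptions of YL1 and YL2 point to the TL file, and both were assigned to YL from their titles, breed and columns.

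Smooth muscle cells wrap the coronary arteries and arterioles and set their width by contracting. Calcium and calmodulin switch on myosin light chain kinase, which phosphorylates the light chains of smooth muscle myosin and lets it pull on actin filaments. A myosin phosphatase reverses this step, and small inhibitor proteins hold the phosphatase back. In the heart most of the tissue is cardiac muscle, so transcripts of the vessel wall are a small part of the RNA. In such bulk samples fewer smooth muscle cells and less RNA per cell cannot be told apart.

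Between 15686812 and 26722604 reads per library fell on genes, with a median of 19648064. Cardiomyocyte markers were present in every library, with a summed level of 16613 to 44323 FPKM (fragments mapped to a transcript, scaled by its length and by the fragments mapped in the library) over 10 genes. YL2 stood apart by its kidney transcripts. The summed level of 11 kidney marker rows was 4455 FPKM in YL2 and 0.4 to 17.2 FPKM in the other 7 libraries, and uromodulin (UMOD) was 947 FPKM in YL2 and listed at 0 in 6 of those 7. TH1 had the highest FPKM sum, 87.6% of it from the mitochondrial genome against 57.7 to 80.3% in the others. Differences are also given without the library concerned where it moves them most.

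Over the 8 libraries the mean level was 84.0 FPKM for TAGLN, 65.8 for PPP1R14B, 52.6 for CNN1, 48.3 for ACTA2, 37.9 for SMTN and 36.6 for CALD1. MYLK and MYH11 lay far below, at 2.80 and 2.71 FPKM, but their rows may be partial gene models, which was not checked against an annotation of Sscrofa10.2 and limits how their levels compare with the other members. TAGLN was above PPP1R14B in 7 of 8 libraries, but PPP1R14B was above CNN1 in 6, CNN1 above ACTA2 in 5, ACTA2 above SMTN in 6 and SMTN above CALD1 in 5, with a mean log2 ratio of each of these pairs smaller than its SD. The 5 genes from PPP1R14B down to CALD1 therefore have no order that held across libraries. CALD1 was above MYLK in 8 of 8 libraries (mean log2 ratio 4.06 ± 1.81, SD, n = 8), and MYLK and MYH11 did not differ beyond their spread (-0.09 ± 0.71). All 8 genes passed the filter for testing, at least 1 FPKM in at least 2 libraries.

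**Figure D1:**
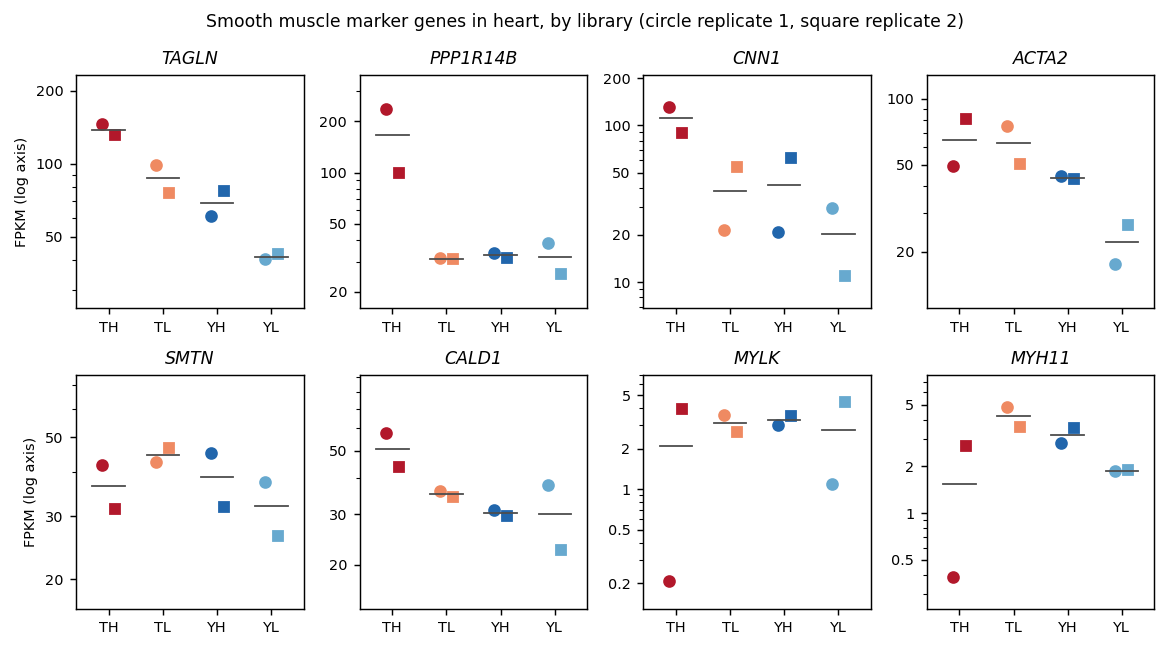
FPKM (vertical log axes, each with its own range) of the 8 smooth muscle marker genes in the 4 groups, ordered by mean level. Circles are replicate 1, squares replicate 2 and bars the group mean: TAGLN runs from 146 FPKM in TH1 down to 40.4 in YL1, PPP1R14B stands apart in TH, and MYLK and MYH11 are lowest in TH1 at 0.208 and 0.388 FPKM.

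The first of the thin filament genes is ACTA2 (ENSSSCG00000010447, chromosome 14:109852734-109871621 of Sscrofa10.2), which encodes the actin of vascular smooth muscle. Its level was 49.3 and 80.6 FPKM for TH, 74.9 and 50.4 for TL, 44.3 and 42.8 for YH, and 17.6 and 26.6 for YL. YL was the lowest group and did not overlap with any other, and both TH and TL lay above YH. On the log2(FPKM + 1) scale used for all differences here, ACTA2 was 1.46 ± 0.34 (SE) higher in TL than in YL (limma adjusted p = 0.28) and 0.97 ± 0.34 higher in YH than in YL (adjusted p = 0.78). TH was 0.52 ± 0.34 above YH (adjusted p = 0.48) and 0.04 ± 0.34 above TL (adjusted p = 0.98), and with any 1 library left out these ranged from 0.17 to 0.87 and from -0.31 to 0.38. The differences of TL and YH from YL then ranged from 1.18 to 1.74 and from 0.69 to 1.26.

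ACTA2 is a minor muscle actin in this tissue. Cardiac actin (ACTC1) ranged from 838 to 5018 FPKM and skeletal actin (ACTA1), which heart muscle also makes, from 5833 to 30005 FPKM, whereas enteric smooth muscle actin (ACTG2) ranged from 1.33 to 6.42 FPKM. ACTA2 made up 0.122 to 0.505% of the summed FPKM of these 4 genes. The proteins of these actins are known to be near-identical. Their transcripts were not compared here, and how reads that match several genes were assigned is not given in the sources used here, so the share of ACTA2 reads that this could touch is not known.

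**Figure D2:**
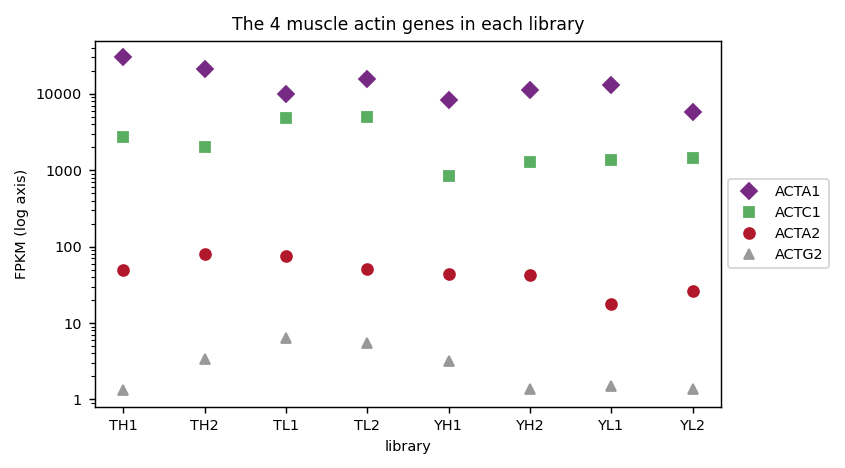
FPKM (vertical log axis) of ACTA1, ACTC1, ACTA2 and ACTG2 in each of the 8 libraries (horizontal axis). ACTA2 lies between 17.6 and 80.6 FPKM in every library, below ACTC1 (838 FPKM or more) and above ACTG2 (6.42 FPKM or less).

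TAGLN (ENSSSCG00000015073, chromosome 9:49631071-49636680) encodes transgelin, also called SM22 alpha, an actin-binding protein of smooth muscle. Its level was 146 and 131 FPKM for TH, 98.4 and 75.9 for TL, 60.8 and 77.0 for YH, and 40.4 and 42.3 for YL. The libraries of TH lay above all others, those of YL lay below all others, and TL overlapped with YH. TAGLN was the only member whose libraries did not overlap, with the first group higher, in all 4 comparisons. This was read from FPKM as deposited, before any rescaling. How many of all genes share this with TAGLN was not counted. The differences were 1.01 ± 0.24 for TH against YH (adjusted p = 0.15), 1.05 ± 0.24 for TL against YL (adjusted p = 0.27), 0.67 ± 0.24 for TH against TL (adjusted p = 0.36) and 0.71 ± 0.24 for YH against YL (adjusted p = 0.76). Leaving out TH1 gave 0.93 for TH against YH and leaving out YL2 gave 1.08 for TL against YL. None of the 4 passed the adjusted threshold.

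CNN1 (ENSSSCG00000013614, chromosome 2:70536386-70544292) encodes calponin 1, which binds actin in differentiated smooth muscle and inhibits the myosin ATPase. Its level was 132 and 89.5 FPKM for TH, 21.6 and 54.3 for TL, 21.0 and 61.7 for YH, and 29.8 and 10.9 for YL. Both TH libraries lay above the other 6, and outside TH the 2 libraries of a group differed as much as the groups did (TL 38.0 ± 23.2, YH 41.4 ± 28.8, YL 20.3 ± 13.4 FPKM, SD, n = 2). The differences were 1.56 ± 0.69 for TH against YH (adjusted p = 0.33) and 1.63 ± 0.69 for TH against TL (adjusted p = 0.44). Without TH1 they were 1.28 and 1.36, and with any 1 library left out they ranged from 0.80 to 2.31 and from 0.98 to 2.28. TL and YH were 0.89 and 0.96 above YL (adjusted p = 0.75 and 0.79), and without YL2 these came to 0.20 and 0.27.

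CALD1 (ENSSSCG00000016535, chromosome 18:15075828-15194597) encodes caldesmon, which has a long form in smooth muscle and a short form in many other cells. The table gives 1 row for the gene and does not separate the forms. Its level was 57.3 and 43.9 FPKM for TH, 36.1 and 34.3 for TL, 31.0 and 29.5 for YH, and 37.8 and 22.5 for YL. TH lay above every other library, and the libraries of YL enclosed those of TL and YH. The differences were 0.71 ± 0.29 for TH against YH (adjusted p = 0.30) and 0.50 ± 0.29 for TH against TL (adjusted p = 0.56), or 0.52 and 0.31 without TH1. The differences from YL were 0.26 for TL and 0.05 for YH, and without YL2 they were -0.10 and -0.31.

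SMTN (ENSSSCG00000010017, chromosome 14:50990975-51014415) encodes smoothelin, an actin-associated protein of contractile smooth muscle. It varied least of the 8 genes, by 1.77-fold between the lowest and the highest library. Its level was 41.8 and 31.4 FPKM for TH, 42.5 and 46.7 for TL, 45.2 and 31.9 for YH, and 37.5 and 26.4 for YL. The libraries of TL lay above those of TH and of YL, and the other comparisons overlapped. TL was 0.49 ± 0.29 above YL (adjusted p = 0.68), and the TH against TL difference was -0.29 ± 0.29 (adjusted p = 0.75). With 1 library left out these ranged from 0.24, without YL2, to 0.73 and from -0.49, without TH1, to -0.09. The TH against YH difference was -0.07 ± 0.29 (adjusted p = 0.92).

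The motor and its kinase were read from rows with few reads. MYH11 (ENSSSCG00000000146, scaffold GL893077.1:10936-50415) encodes the heavy chain of smooth muscle myosin, and its row lies on a scaffold that is not placed on a chromosome. Its level was 0.388 and 2.69 FPKM for TH, 4.87 and 3.62 for TL, 2.85 and 3.54 for YH, and 1.88 and 1.89 for YL, from 22 reads in TH1 and 97 to 324 reads in the others. TH lay below TL and YH, and TL and YH lay above YL. The differences were -0.88 ± 0.44 for TH against YH (adjusted p = 0.37) and -1.20 ± 0.44 for TH against TL (adjusted p = 0.37). They were 0.85 ± 0.44 for TL against YL (adjusted p = 0.64) and 0.54 ± 0.44 for YH against YL (adjusted p = 0.80). Without TH1 the TH differences were -0.18 and -0.49, and with a pseudocount of 0.1 FPKM in place of 1 they were -1.49 and -1.88.

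MYLK (ENSSSCG00000011867, chromosome 13:146205267-146232577) encodes myosin light chain kinase. Its level was 0.208 and 3.95 FPKM for TH, 3.56 and 2.66 for TL, 3.00 and 3.51 for YH, and 1.099 and 4.41 for YL, from 7 reads in TH1, 34 in YL1 and 122 to 236 in the others. The groups overlapped in all 4 comparisons. The largest fitted differences were -0.80 ± 0.69 for TH against YH (adjusted p = 0.59) and -0.74 ± 0.69 for TH against TL (adjusted p = 0.74), and without TH1 they were 0.22 and 0.28.

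The low values of TH1 at these 2 rows were set beside genes of the lists that have 2 rows in the table. PDGFRB, a receptor of pericytes and smooth muscle, has 1 row at 2.43 FPKM in TH1 and 12.6 in TH2, and another at 15.8 in TH1 and 10.3 in TH2. NOTCH3, a receptor of arterial smooth muscle, has 1 row at 0.903 FPKM in TH1 and 7.34 in TH2, and another at 13.4 and 13.9. Both rows of MYL6, a myosin light chain, were higher in TH1 than in TH2 (56.2 against 27.6 and 0.691 against 0.373 FPKM), and both rows of the collagen COL1A1 were lower (2.05 against 51.9 and 43.3 against 192 FPKM). COL1A2 was lower in TH1 at 1 row (32.7 against 56.6 FPKM) and near 0 at the other. Of these genes only PDGFRB had rows on both sides of their TH2 level. The next row before MYH11 on its scaffold, 1286 bases away and without a symbol, was 1.26 FPKM in TH1, 2.52 in TH2 and 1.57 to 5.13 in the others. The part of this in the MYH11 and MYLK differences was not tested.

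PPP1R14B (ENSSSCG00000013035, chromosome 2:6932321-6934762) encodes an inhibitor of protein phosphatase 1 related to PPP1R14A, the inhibitor enriched in smooth muscle, but made in many cell types. Its level was 235 and 99.1 FPKM for TH, 31.7 and 31.0 for TL, 33.8 and 31.6 for YH, and 38.4 and 25.6 for YL. Both TH libraries lay above the other 6, whose range was 25.6 to 38.4 FPKM. TH was 2.19 ± 0.41 above YH (adjusted p = 0.097) and 2.25 ± 0.41 above TL (adjusted p = 0.18), which are fitted ratios of 4.56 and 4.75. Without TH1 the differences were 1.57 and 1.63. The other 2 comparisons gave -0.000707 ± 0.41 for TL against YL (adjusted p = 1) and 0.06 ± 0.41 for YH against YL (adjusted p = 0.98).

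Genes of the phosphatase that such inhibitors act on were read beside it. The catalytic subunit PPP1CB ranged from 90.8 to 161 FPKM, and was 100 and 140 FPKM in TH. The targeting subunit PPP1R12B was 5.29 and 13.2 FPKM in TH and 7.99 to 24.1 in the others, whereas its relative PPP1R12A was 48.8 and 19.3 in TH and 8.59 to 20.9 in the others. The ratio of PPP1R14B to PPP1CB was 2.34 in TH1, 0.710 in TH2 and 0.1997 to 0.281 in the other 6 libraries.

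**Figure D3:**
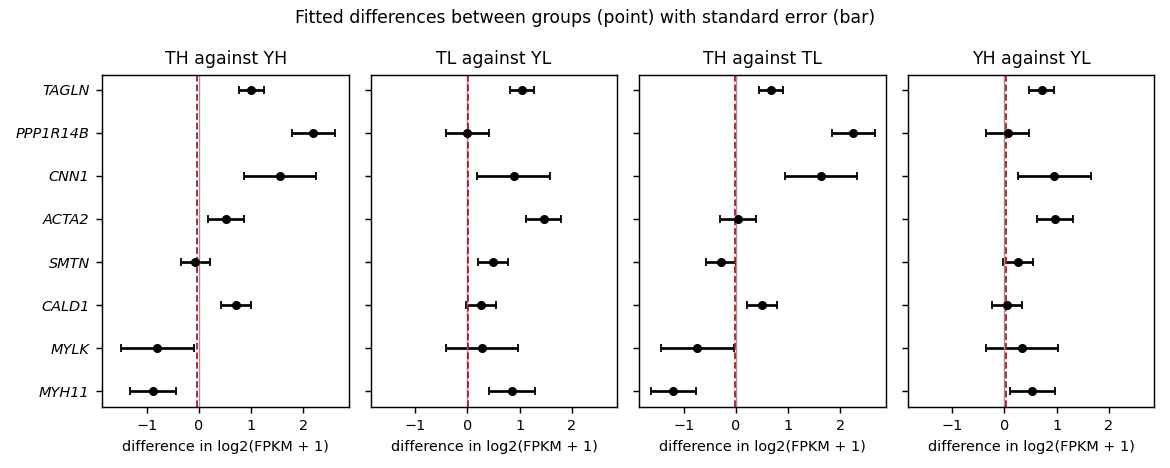
Fitted differences in log2(FPKM + 1) (horizontal axis) of the 8 genes in the 4 comparisons, as points with standard errors. The solid line is 0 and the dashed line is the median of all genes tested: in YH against YL all 8 points lie above 0 (median 0.43), and in TH against YH they spread from -0.88 for MYH11 to 2.19 for PPP1R14B.

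The question of the first comparison is how the breeds differ in the highland. Of the 8 genes, 5 were higher and 3 lower in TH than in YH, with a median difference of 0.62 against -0.03 over all 11913 genes tested, of which 47.5% were higher. The libraries did not overlap for 6 members (ACTA2, TAGLN, CNN1, PPP1R14B and CALD1 higher, MYH11 lower), beside 52.5% of all genes. By limma at an adjusted p under 0.01 and a difference over 1, 0 of the 8 were called, and 4 genes (0.0336%) were called in all. At an unadjusted p under 0.05, 3 of the 8 and 1928 of all genes passed. PPP1R14B and TAGLN passed an unadjusted p under 0.01 with a difference over 1, as did 4.06% of all genes.

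For the breeds in the lowland, 7 of the 8 genes were higher and 1 was lower in TL than in YL, with a median of 0.67 against 0.02 over all genes. The libraries did not overlap for 4 members, all higher in TL (ACTA2, TAGLN, MYH11 and SMTN), beside 41.5% of all genes. None of the 8 was called by limma, and 1 gene (0.00839%) was called in all. At an unadjusted p under 0.05, 2 of the 8 and 1065 of all genes passed. ACTA2 and TAGLN passed the unadjusted p under 0.01 with a difference over 1, beside 2.03% of all genes. Without YL2, 6 of the 8 were higher in TL, with a median of 0.55.

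For the highland against the lowland in Tibetan pigs, 5 genes were higher and 3 lower in TH than in TL, with a median of 0.27 against -0.02 over all genes. The libraries did not overlap for 6 members, with TAGLN, CNN1, PPP1R14B and CALD1 higher and MYH11 and SMTN lower in TH, beside 48.5% of all genes. None of the 8 was called by limma against 6 genes (0.0504%) in all. At an unadjusted p under 0.05, 3 of the 8 and 1351 of all genes passed. PPP1R14B passed the unadjusted p under 0.01 with a difference over 1, beside 2.57% of all genes.

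For the same contrast in Yorkshire pigs, all 8 genes were higher in YH than in YL, with a median of 0.43 against 0.03 over all genes, of which 54.0% were higher. The libraries did not overlap for 3 members (ACTA2, TAGLN and MYH11), beside 36.3% of all genes. No gene of the table was called by limma (0%), and 2 of the 8 and 711 of all genes passed an unadjusted p under 0.05. None of the 8 passed the unadjusted p under 0.01 with a difference over 1, beside 0.839% of all genes. Without YL2, 6 of the 8 were higher in YH, with a median of 0.41, and CALD1 and PPP1R14B were lower.

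The altitude difference was compared between the breeds as TH against TL minus YH against YL. None of the 8 was called by limma against 4 genes (0.0336%) in all, and 2 of the 8 and 1303 of all genes passed an unadjusted p under 0.05. PPP1R14B had the largest value, 2.19 ± 0.58 (adjusted p = 0.33), and passed the unadjusted p under 0.01 with a value over 1, beside 2.85% of all genes; without TH1 it was 1.57. MYH11 had the lowest, -1.74 ± 0.62 (adjusted p = 0.40), or -1.03 without TH1, and TAGLN the one nearest to 0, -0.04 ± 0.34 (adjusted p = 0.97). The comparisons share libraries with each other, so their values are not independent.

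**Figure D4:**
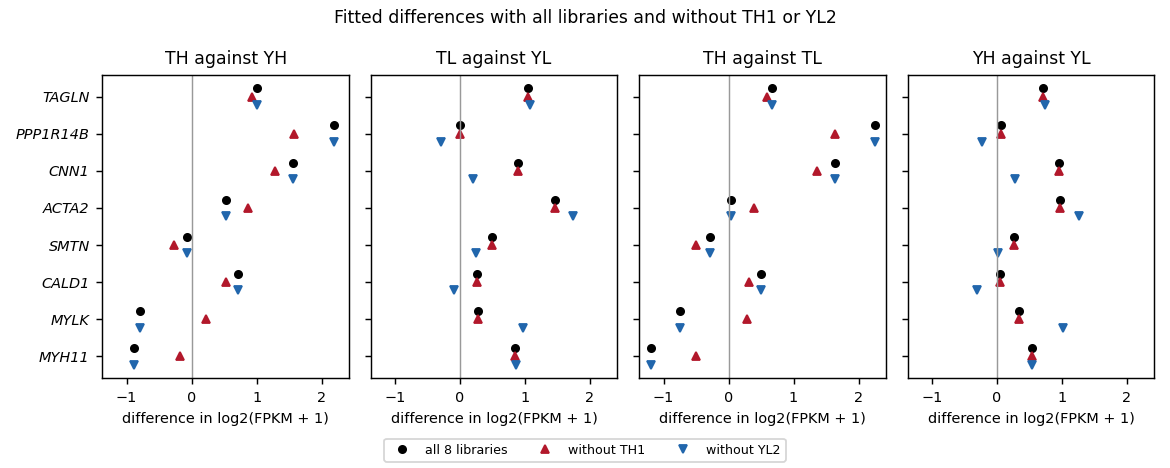
Fitted differences in log2(FPKM + 1) (horizontal axis) of the 8 genes in the 4 comparisons with all 8 libraries (circles), without TH1 (upward triangles) and without YL2 (downward triangles). MYLK crosses 0 in both TH comparisons without TH1 (0.22 and 0.28), CALD1 does so in both YL comparisons without YL2 (-0.10 and -0.31), and the points plotted for TAGLN lie above 0.

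Scaling moved the zero point of these comparisons. With every library scaled to the same FPKM sum, which the mitochondrial transcripts dominate, the median of all genes became -0.74 for TH against YH, -0.28 for TL against YL, -0.44 for TH against TL and 0.03 for YH against YL. Under it ACTA2 and CALD1 were below 0 for TH against YH (-0.44 and -0.25), although above the median of all genes. TAGLN was then 0.03 for TH against YH and 0.04 for TH against TL, and CNN1 was 0.58 and 1.001. PPP1R14B was 1.21 and 1.62, beside 2.19 and 2.25 without rescaling. Relative to that median, the number of members above it was 5, 7, 4 and 8 in these 4 comparisons, beside 5, 7, 5 and 8 without rescaling.

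A list of 40 other genes of smooth muscle contraction was read beside the members, of which 37 had rows and 32 rows were tested. Of these, 19 were higher in TH than in YH, 25 in TL than in YL, 20 in TH than in TL and 26 in YH than in YL, with medians of 0.22, 0.48, 0.16 and 0.30, and 0 were called by limma in any comparison. The highest by mean FPKM over all libraries was desmin (DES), an intermediate filament protein of all muscle. It was 9125 and 5761 FPKM in TH and 920 to 3510 in the others. Its difference was 1.78 for TH against YH (adjusted p = 0.27) and 2.28 for TH against TL (adjusted p = 0.30). The tropomyosins TPM1 (1579 to 4582 FPKM) and TPM2 (307 to 665 FPKM) are also made by cardiac muscle, as DES is. Outside TH, TPM1 lay above DES in each library. The integrin ITGA5 was 2151 FPKM in YH2 and 27.1 to 202 in the other 7 libraries.

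The regulatory light chain MYL9, which the kinase phosphorylates in smooth muscle, was 327 and 283 FPKM for TH, 226 and 243 for TL, 151 and 205 for YH, and 282 and 179 for YL. TH was 0.79 above YH (adjusted p = 0.29), and the libraries of TL lay within the range of YL. Of the transcription factors of smooth muscle, 10 rows were tested, and 4 were higher in TH than in YH, 7 in TL than in YL, 3 in TH than in TL and 9 in YH than in YL, with 0 called. SRF, the factor that binds the promoters of many muscle actin and actin-binding genes, was 45.5 and 48.9 FPKM in TL and 18.1 to 30.5 in the other 6 libraries, 1.15 higher in TL than in YL (adjusted p = 0.19).

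Markers of other cell types of the heart were counted in the comparisons against YL, and none of them was called. In TL against YL, 10 of 11 endothelial, 13 of 13 fibroblast, 10 of 10 pericyte and 10 of 10 cardiomyocyte rows were higher in TL, with medians of 0.77, 1.20, 0.88 and 0.60. Without YL2 the counts were 11, 13, 8 and 5, with medians of 0.46, 1.22, 0.64 and -0.06. In YH against YL, 11, 12, 10 and 8 of these rows were higher in YH, and without YL2 the counts were 11, 12, 8 and 1. The summed endothelial level was 289 and 302 FPKM for TH, 286 and 293 for TL, 266 and 278 for YH, and 200 and 163 for YL. That of the fibroblast rows was 288.5 in TH1, 846 in TH2, 948 and 748 for TL, 415 and 501 for YH, and 362 and 295 for YL. Of 6 blood cell rows, 4 were higher in TL than in YL (median 0.39) and 6 in YH than in YL (median 0.88, or 0.87 without YL2). The part of these cell types in the differences of the smooth muscle genes from YL was not tested.

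Atrial genes were read beside the TH comparisons, since the labels name no chamber. Atrial natriuretic peptide (NPPA), made by atrial and by stressed ventricular muscle, was 2263 and 2146 FPKM in TH and 23.1 to 108 in the other 6 libraries. The atrial light chain MYL7 was 4283 and 3207 FPKM in TH and 337 to 2578 in the others. The atrial rows had a median of 1.595 for TH against YH and of 0.52 for TH against TL, with 5 and 4 of 6 higher in TH and 0 called. SLN was 56.5 and 16.3 FPKM in TH and 0.81 to 3.52 in the others. TBX5 and MYL4 were lower in TH than in TL (-0.81 and -0.87), and for TH against YH they were -0.60 and 0.85. The rows of stress and sarcomere isoforms, a list that shares NPPA with the atrial one, had medians of 1.21 and 1.15. Of the markers of other cell types, the endothelial rows had medians of -0.09 and -0.18 in these comparisons. Of the fibroblast rows 7 of 13 were higher in TH than in YH (median 0.15), and 12 of 13 without TH1 (median 1.23), and 3 of 13 were higher in TH than in TL (median -0.23), and 10 of 13 without TH1 (median 0.28). Of the cardiomyocyte rows 4 of 10 were higher in TH than in YH (median -0.13), and 2 of 10 without TH1 (median -0.38), and 2 of 10 were higher in TH than in TL (median -0.43), and 0 of 10 without TH1 (median -0.61). Among the blood cell rows, CD3E of T cells was 1.69 and 0.86 FPKM for TH against 6.60 and 9.08 for YH, and PTPRC of leukocytes 1.29 and 1.41 for TH against 6.10 and 6.19 for YH. The globin HBB was 1708 and 876 FPKM in TH and 290 to 649 in the others. Of 3 skeletal muscle rows tested, 2 were higher and 1 was lower in TH in both comparisons (medians 1.40 and 1.03). One of them, the fast troponin TNNC2, was 3.24 and 3.41 FPKM in TH and 0.15 to 0.78 in the others. None of CD3E, PTPRC, HBB and TNNC2 was called by limma. The part of the sampled region of the heart and of these cell types in the TH differences of TAGLN, CNN1, CALD1 and PPP1R14B was not tested.

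Over the 8 libraries, the levels of the members followed each other unevenly. Of the 28 pairs, 19 had a Pearson correlation of log2(FPKM + 1) above 0, and 23 without TH1, as a description over libraries that share groups. ACTA2 and TAGLN had 0.84, or 0.95 without TH1, and PPP1R14B and CALD1 had 0.88, or 0.75 without TH1. MYH11 and PPP1R14B had the lowest, -0.74, or -0.10 without TH1.

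Among 4270 genes with a mean of at least 10 FPKM, the 3 genes whose pattern over the 8 libraries was most like each member were picked by that correlation. For TAGLN they were LMNA (0.97), CYR61 (0.96) and TMSB10 (0.96), and for ACTA2 they were GNAI2 (0.94), CD93 (0.93) and HNRPDL (0.92). For PPP1R14B they were CCM2, EIF5A and COPE (0.99, 0.99 and 0.98), and for CALD1 COQ10B, SRPK3 and NTMT1 (0.99, 0.98 and 0.97). For CNN1 they were RELA, GYG1 and FAM46B (0.98, 0.98 and 0.95), for SMTN TOMM40L, HMGN4 and PPIF (0.97, 0.95 and 0.95), and for MYLK HNRNPR, STOM and TM9SF2 (0.98, 0.98 and 0.97). For MYH11 2 genes without a symbol came first, followed by CTNNB1 (0.97). Without YL2 these correlations lay between 0.91 and 0.99, and without TH1 between 0.90 and 0.99.

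No other row of the table overlaps the span of a member. The closest are SELENOM, 49 bases after SMTN, PCSK7, 189 bases after TAGLN, and FKBP2, 426 bases after PPP1R14B. FKBP2 was 127 and 51.0 FPKM in TH and 46.5 to 65.0 in the others, so it was high in TH1 alone, unlike PPP1R14B. SELENOM was 108 and 46.2 FPKM in TH and 14.7 to 25.2 in the others, whereas the TH libraries of SMTN lay within the range of the other 6.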

How the data were processed

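The members and gene lists were chosen with earlier results of these data known. The study's methods state that the authors aligned reads to Sscrofa10.2 with TopHat2 2.0.9 and computed FPKM with Cufflinks. The submitters' processing notes also name Bowtie 0.12.5 and DESeq 1.10.1. The deposited table gives, for each library, FPKM and a read signal that the authors scaled by a factor per library. Dividing that signal by its step made at least 99.7% of low values (0.6 to 60) whole within 0.1, which gave the reads stated. These are estimates, since 7 libraries also hold up to 5 values above 0 that lie below 0.9 of a step, and no count model was run on them. Another 8 columns, group means and comparisons made by the authors, were not used.

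FPKM were used as deposited. The model had a mean for each group, used log2(FPKM + 1) from all 8 libraries, and was fitted with limma 3.58.1 (R 4.3.3, trended moderation) over the 11913 genes that reached 1 FPKM in 2 or more libraries. The p-values were adjusted by the Benjamini-Hochberg method over all of them. They measure the spread between pools, and fold changes of low genes are understated. The call rule was a difference over 1 at an adjusted p under 0.01. The fit was also run on simulated data, with planted changes larger than any member difference of the main fit. That run therefore does not bear on the members. Every member was named, and from other lists mainly the genes of highest mean FPKM. The phosphatase subunits, genes with several rows and neighbouring rows were added after their values were seen. Alternatives were a pseudocount of 0.1, other filters and scalings, a replicate block, fits of 4 libraries, no trend, other thresholds and each library left out. Figures used matplotlib 3.10.9 and tables pandas 2.3.3 under Python 3.11.15.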

Additional observations from a re-analysis of the deposited data

Results flagged for a closer look

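The libraries of MYH11 lay in opposite orders in the breeds, although no MYH11 difference was called. Both TH libraries lay below both TL libraries, whereas both YH libraries lay above both YL libraries, and likewise TH lay below YH while TL lay above YL. These orders were read from FPKM as deposited, before any rescaling, and only the members were searched. The share of all genes with such opposite orders was not counted. The interaction of breed and altitude was -1.74 on the log2(FPKM + 1) scale, with a limma adjusted p of 0.40 that ranged from 0.0662 to 0.9999 over the alternatives, so the difference between the breeds did not pass the threshold. With 1 library left out it ranged from -2.44 to -1.03, the latter without TH1, which has 22 reads on this row.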

How the results depend on the processing

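No member was called by the main rule under any alternative. With all 8 libraries and the main settings, the count of members called was 0 at an adjusted p under 0.05, and at an unadjusted p under 0.01 it was 2 for TH against YH, 2 for TL against YL, 1 for TH against TL, 0 for YH against YL and 1 for the interaction. For TH against YH, 2 members passed the adjusted p under 0.05 without TH2 (PPP1R14B and MYH11), among 502 of all 11913 genes against 31 with all libraries, and 1 without TH1 and YL2 together (PPP1R14B), among 37 genes, and with the same FPKM sum none passed the unadjusted p in any comparison. The unadjusted count for TL against YL was also 0 with median-ratio scaling (205 of all genes passed) and with the same sum without the mitochondrial genome (121). It was 1 in the fit of 4 libraries (220). That for TH against YH was 1 with these 2 scalings (457 and 169) and with the scaled read signal (608 of 13636 genes). For the interaction it was 0 with no filter on low values (307 of 18975 genes) and with the same sum without the mitochondrial genome (122). With libraries left out these counts moved both up and down, and they rest on groups of 1 library. Of 742 member differences recomputed under an alternative, 705 kept their direction and 37 reversed, and the cause was not tested. With the same FPKM sum these were ACTA2 (-0.44) and CALD1 (-0.25) for TH against YH, MYLK (-0.0776) and CALD1 (-0.0628) for TL against YL, ACTA2 (-0.58) and CALD1 (-0.12) for TH against TL, and CALD1 (-0.19) in the interaction. With the same sum without the mitochondrial genome they were PPP1R14B (0.0569) for TL against YL and ACTA2 (-0.15) for TH against TL. With median-ratio scaling they were ACTA2 (-0.0707) for TH against TL, and PPP1R14B (-0.00398) and CALD1 (-0.0121) for YH against YL. A pseudocount of 0.1 gave PPP1R14B 0.000105 for TL against YL, and the scaled read signal, added after seeing the data, gave CALD1 -0.0345 for YH against YL. Without TH1 and YL2 together, also added then, MYLK was 0.22 and 0.28 for TH against YH and TL, CALD1 was -0.10 and -0.31 for TL and YH against YL, and PPP1R14B was -0.23 for YH against YL.

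With 1 library left out, the lone library of a group is assumed to vary like the others. MYLK then ranged from -1.81 to 0.22 for TH against YH, from -1.76 to 0.28 for TH against TL, from -0.41 to 0.96 for TL against YL and from -0.35 to 1.02 for YH against YL. CALD1 ranged from -0.10 to 0.62 for TL against YL and from -0.31 to 0.41 for YH against YL, and PPP1R14B from -0.29 to 0.28 and from -0.23 to 0.34. ACTA2 ranged from -0.31 to 0.38 for TH against TL, SMTN from -0.31 to 0.18 for TH against YH, and in the interaction CNN1 from -0.0816 to 1.43 and TAGLN from -0.23 to 0.15. With the replicate block no member was called (0 in each comparison). The block is balanced over the groups and cannot move a fitted difference, so PPP1R14B was 2.19 for TH against YH by construction, with an adjusted p of 0.109 against 0.097 by limma. The numbers do not pair the libraries (correlations of deviations from -0.08 to 0.12). Planned fits of a count model were not run, since the deposited signal is scaled and a few of its values lie below the step of 1 read. With 22 and 7 reads in TH1, MYH11 and MYLK rest on the fewest reads of the members in that library. By standard error, CNN1 and MYLK (both 0.69) were less precise than MYH11 (0.44).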
